A study of Mus musculus with 4 samples.

Results

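The 9 genes described here encode secreted factors that promote or restrain blood vessel growth, measured in mouse embryonic fibroblasts (MEFs): Vegfa, Vegfb, Vegfc, Thbs1, Thbs2, Angpt1, Angpt2, Angptl2 and Angptl4. They were chosen by name, are 9 of the 55487 genes counted, and all 9 had enough counts to be tested. PEDF (pigment epithelium-derived factor), the product of Serpinf1, is itself a secreted inhibitor of angiogenesis. Wild-type C57BL/6J MEFs, taken from embryos and given as passage 2 in the labels, were cultured with 10% serum and received PEDF at 100 ng/mL, purified from mammalian cells, or no PEDF for 24 h. Experiments 1 and 2 each gave 1 control and 1 PEDF library and each had its own embryos, so each MEF preparation stands behind 2 of the 4 libraries. Libraries were made from polyadenylated RNA and held 14722848 to 18144640 counts.

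Vascular endothelial growth factors (VEGFs) bind receptor tyrosine kinases of endothelial cells. VEGF-A drives the sprouting of blood vessels and VEGF-C that of lymphatic vessels. Angiopoietin 1 activates the receptor Tie2 and stabilizes vessels, and angiopoietin 2 can oppose it. Thrombospondins 1 and 2 are matrix proteins that inhibit angiogenesis, and fibroblasts are a known source of them. Angiopoietin-like proteins resemble angiopoietins in structure but do not bind Tie2, and angiopoietin-like 4 is an inhibitor of lipoprotein lipase.

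The fibroblast markers were abundant, with a summed level of 13155 to 17388 TPM (a transcript level corrected for length and library depth) over 8 genes, led by Col1a1 and Vim. The 10 endothelial markers summed to 19.4 to 20.7 TPM, mostly Erg, and Cldn5 was at 0 in every library. The RNA is from whole cultures, so fewer cells of a type and less RNA per cell cannot be told apart.

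The thrombospondins dominated the 9 genes. Thbs1 had 2276 TPM in control and 1770 TPM in PEDF MEFs of experiment 1, and 2959 and 2433 TPM in those of experiment 2, and it made up 80.6% of the summed mean TPM of the 9 genes. Thbs1 alone took 0.397 to 0.610% of all counts of a library. Thbs2 was next with a mean of 325 ± 48.7 TPM (SD, n = 4 libraries), 7.25-fold below Thbs1. Angptl2 had 84.3 ± 8.18 TPM, Vegfa 65.1 ± 8.38 TPM and Vegfb 44.6 ± 3.33 TPM (SD, n = 4 libraries). The ranges of these 5 genes did not overlap those of their neighbours in the order. Vegfc (12.2 to 17.3 TPM), Angpt1 (10.4 to 13.2), Angptl4 (10.4 to 12.8) and Angpt2 (10.1 to 12.5) formed a lower group in which each range overlapped the next. Within a library the ratio of Thbs1 to Vegfa lay between 32.4 and 39.7 in TPM, and that of Angpt1 to Angpt2 between 0.955 and 1.14. The order was the same by CPM (counts scaled to a common library total) divided by exon length.

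**Figure D1:**
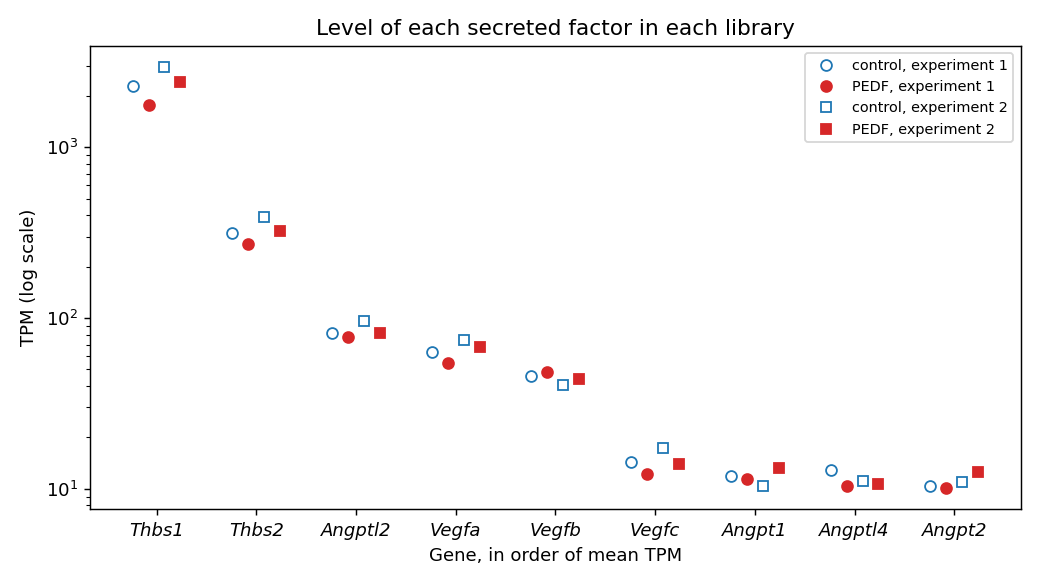
TPM of each gene (log scale) in the 4 libraries, with open blue symbols for control, filled red symbols for PEDF, circles for experiment 1 and squares for experiment 2. Thbs1 lies between 1770 and 2959 TPM and the 4 lowest genes between 10.1 and 17.3 TPM.

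The question of the comparison was which of these genes PEDF altered. When edgeR's quasi-likelihood test was fitted with the treatment alone, none of the 9 genes had an adjusted p under 0.05, against 0.00516% of all 19384 genes tested. The unadjusted p was under 0.05 for 1 of them (Thbs2), against 6.88% of all genes, and DESeq2 and limma without such a term also called 0 members, with 1 and 0 at an unadjusted p under 0.05. DESeq2 gave an adjusted p to only 4 of the 9 (Vegfa, Thbs1, Thbs2 and Angptl2) and set the other 5 aside by its filter on mean counts, so its count of 0 is over those 4. When the experiment was added to the edgeR model as a block, so that each PEDF library was set against the control of its own preparation, 2 of the 9 genes were lower with PEDF, Thbs1 and Thbs2, against 2.07% of all genes called lower. In limma on log2(TPM + 1) with the same block neither passed, at log2 fold changes of -0.32 (adjusted p = 0.360) and -0.24 (adjusted p = 0.419). Neither gene passed without the block, except Thbs2 when control replicate 1 was left out. Over 19 fits of this comparison, 12 called no member, 6 called Thbs1 and 7 called Thbs2. The median log2 fold change of the 9 genes was -0.15 without and with the block, and that of all genes tested was 0.0012 and 0.0023. With the block the 4 libraries leave 1 residual degree of freedom. The SEs and p-values of that edgeR fit therefore rest mainly on a spread shared across genes, not on the difference between the 2 experiments. Below, CPM are scaled by edgeR's TMM factors, and fold changes are PEDF against control.

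Thbs1 (ENSMUSG00000040152, plus strand of chr2:118111876-118127133, GRCm38) encodes thrombospondin 1, a trimeric glycoprotein that binds CD36 and CD47. In experiment 1 it had 4906 CPM in control and 3920 CPM in PEDF MEFs, and in experiment 2 the values were 6206 and 5133 CPM. The PEDF library was the lower one in each experiment, but PEDF 2 lay above control 1, so the groups overlapped. The log2 fold change was -0.30 (SE 0.15, adjusted p = 0.758) without the block and -0.30 (SE 0.04, 95% interval -0.37 to -0.23, adjusted p = 6.97e-13) with it. The value without the block moved with the library left out: it was -0.46 without control replicate 1 and -0.12 without control replicate 2. It was -0.11 without PEDF replicate 1 and -0.50 without PEDF replicate 2. Each of these fits lacks 1 library of a pair, so the difference between the MEF preparations enters the value. Within experiments 1 and 2 the PEDF level differed from control by -20.1% and -17.3%, log2 ratios of -0.32 and -0.27.

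Thbs2 (ENSMUSG00000023885, minus strand of chr17:14665500-14694235) encodes thrombospondin 2, the closest relative of thrombospondin 1. It had 782 and 944 CPM in the control libraries and 696 and 789 CPM in the PEDF libraries of experiments 1 and 2. Again each PEDF library was below its own control, and PEDF 2 stood just above control 1. The log2 fold change was -0.22 (SE 0.09, adjusted p = 0.695) without the block, and with the block it was -0.21 (SE 0.04, 95% interval -0.30 to -0.13, adjusted p = 6.56e-05). Here too the value without the block moved with the library left out. It was -0.35 without control replicate 1 and -0.08 without control replicate 2. It was -0.13 without PEDF replicate 1 and -0.31 without PEDF replicate 2. Again the difference between the MEF preparations enters these values.

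Log2 fold changes in these libraries fell with gene length, by 0.040 per doubling in experiment 1 and 0.056 in experiment 2, and the exons of Thbs1 and Thbs2 cover 6073 and 7003 bp. With the block and a correction for length, 2 members were lower (1.12% of all genes), with -0.28 for Thbs1 and -0.18 for Thbs2 (adjusted p = 4.15e-09 and 0.00193, edgeR). With GC content also corrected, the same 2 genes were lower (1.17% of all genes), at -0.27 and -0.18 (adjusted p = 8.53e-12 and 7.58e-04, edgeR).

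**Figure D2:**
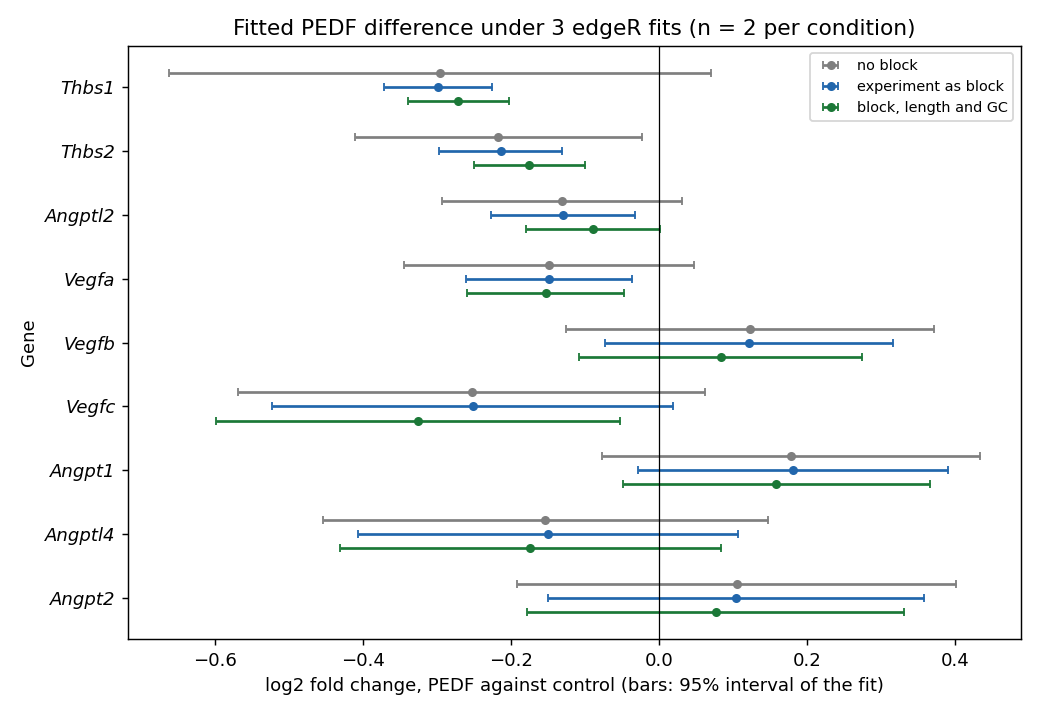
Fitted log2 fold change of each gene with its 95% interval in edgeR without a block (grey), with the experiment as block (blue) and with the block after correction for length and GC content (green), from 2 libraries per condition. The interval of Thbs1 includes 0 without the block (-0.66 to 0.07) and lies from -0.37 to -0.23 with it.

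The coding sequences of Thbs1 and Thbs2, 3516 and 3519 bases long, are 69.0% identical over 3440 aligned bases. They are shown at their longest identical run because near-identical stretches can share reads between related genes. The run, in capitals, has 26 bases and lies in exon 15 of a GENCODE M21 transcript of each gene (Thbs1 at chr2:118120873-118120938, plus strand, and Thbs2 at chr17:14676264-14676329, minus strand, GRCm38), with 20 bases on each side. In this window of 66 bases, 53 are identical.
Thbs1: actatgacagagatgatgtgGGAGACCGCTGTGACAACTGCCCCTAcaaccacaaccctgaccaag
Thbs2: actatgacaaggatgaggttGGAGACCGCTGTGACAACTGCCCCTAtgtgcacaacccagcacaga
The longest identical run between Angpt1 and Angpt2 coding sequences was 17 bases, and that between Vegfa and Vegfb was 18.

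Gm29233, a noncoding gene on the opposite strand, shares 208 exon bases with Thbs1. Its 4478 and 7263 counts in control and 4021 and 5775 in PEDF libraries amounted to 6.42% of the counts of Thbs1, and it had a log2 fold change of -0.28 with the block (edgeR, adjusted p = 2.56e-07). The libraries were directional, but the strand setting of the counting is not given in the sources used here, so the counts of this pair are uncertain. Of the other overlapping genes, Gm17473 shares 737 exon bases with Angpt1 and had 14.1% of its counts, while Mcph1 and Ralgps1 overlap Angpt2 and Angptl2 without a shared exon base.

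Vegfa (ENSMUSG00000023951, minus strand of chr17:46016993-46032369) had 96.3 and 110 CPM in the control libraries and 85.3 and 101 CPM in the PEDF libraries of experiments 1 and 2. Its log2 fold change was -0.15 (SE 0.09, adjusted p = 0.766) without the block and -0.15 (SE 0.06, 95% interval -0.26 to -0.04, adjusted p = 0.134) with it. The PEDF level differed from control by -11.3% and -8.37% in experiments 1 and 2, and the difference did not pass the test in either fit. Vegfc, the lymphatic growth factor, had 12.5 and 14.6 CPM in control and 10.9 and 11.9 CPM in PEDF libraries, so both PEDF libraries lay below both controls. Its log2 fold change with the block was -0.25 (95% interval -0.52 to 0.02, edgeR, adjusted p = 0.401). Vegfb, which binds VEGF receptor 1, was the 1 gene higher in both experiments, with 26.1 and 22.4 CPM in control and 28.2 and 24.5 CPM in PEDF libraries. Its log2 fold change with the block was 0.12 (95% interval -0.07 to 0.32), which did not pass the test.

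Promoter sequences from RefSeq (GRCm38.p6) were at hand for 5 of the 9 genes. Those of Thbs2, which was lower with the block, and of Vegfa, which did not pass the test, are shown as the 250 bases before the start, with matches to the GC box (GGGCGG), the CCAAT box (CCAAT) and the core of the hypoxia element (ACGTG or GCGTG) on either strand in capitals. The Thbs2 sequence is from chr17:14694263-14694512 and that of Vegfa from chr17:46032378-46032627, the farther upstream of its 2 listed starts, both on the minus strand.
Thbs2: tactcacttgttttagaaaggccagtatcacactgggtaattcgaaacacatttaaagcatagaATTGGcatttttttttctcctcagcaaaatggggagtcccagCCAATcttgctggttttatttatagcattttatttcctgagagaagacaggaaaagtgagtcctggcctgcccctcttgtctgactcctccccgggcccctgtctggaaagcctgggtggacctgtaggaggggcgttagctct
Vegfa: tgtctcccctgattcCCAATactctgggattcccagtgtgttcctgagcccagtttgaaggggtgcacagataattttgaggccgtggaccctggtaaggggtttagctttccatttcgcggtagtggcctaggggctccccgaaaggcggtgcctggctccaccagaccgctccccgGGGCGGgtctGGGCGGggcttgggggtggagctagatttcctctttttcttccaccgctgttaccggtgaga
The Thbs2 window holds 2 CCAAT boxes and 0 GC boxes, and the Vegfa window 1 CCAAT box and 2 GC boxes, with no overlap between matches. The window before the other Vegfa start (chr17:46025164-46025413, not printed) holds 2 hypoxia cores, 1 GC box and 1 CCAAT box, and the 2 printed windows hold 0 hypoxia cores. Of 32851 promoter windows of this length, 33.8% hold a CCAAT box, 32.7% a GC box and 38.6% a hypoxia core.

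Angpt1 and Angpt2 encode the ligands of Tie2. Angpt1 had 21.8 CPM in both libraries of experiment 1, and 18.7 CPM in control and 23.9 CPM in PEDF MEFs of experiment 2. Its log2 ratio was near 0 in experiment 1 (exact 95% interval -0.22 to 0.22, for counting error only) and 0.35 in experiment 2 (0.14 to 0.56), and these intervals overlap. Angpt2 had 13.7 and 13.9 CPM in control and 13.6 and 16.05 CPM in PEDF libraries, and its intervals of -0.30 to 0.27 and -0.04 to 0.46 in experiments 1 and 2 both include 0. With the block the log2 fold change was 0.18 for Angpt1 (95% interval -0.03 to 0.39) and 0.10 for Angpt2 (95% interval -0.15 to 0.36), and neither passed the test.

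Angptl2 had 182 and 209 CPM in control and 177 and 179 CPM in PEDF libraries. Both PEDF libraries were below both controls in CPM, but in TPM PEDF 2 (82.2) stood just above control 1 (81.5). The log2 ratios were -0.04 in experiment 1 and -0.22 in experiment 2. With the block the log2 fold change was -0.13 (95% interval -0.23 to -0.03, edgeR, adjusted p = 0.131). Angptl4 had 16.1 and 13.5 CPM in control and 13.4 and 13.1 CPM in PEDF libraries, again without overlap, and a log2 fold change of -0.15 with the block (95% interval -0.41 to 0.11).

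Across the 9 genes, 6 were lower with PEDF in both experiments (28.8% of all genes were), 1 was higher in both (30.1% of all genes) and 2 had opposite signs. In CPM, both PEDF libraries lay below both controls for 3 genes (18.5% of all genes) and above them for 0 genes (18.8% of all genes).

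**Figure D3:**
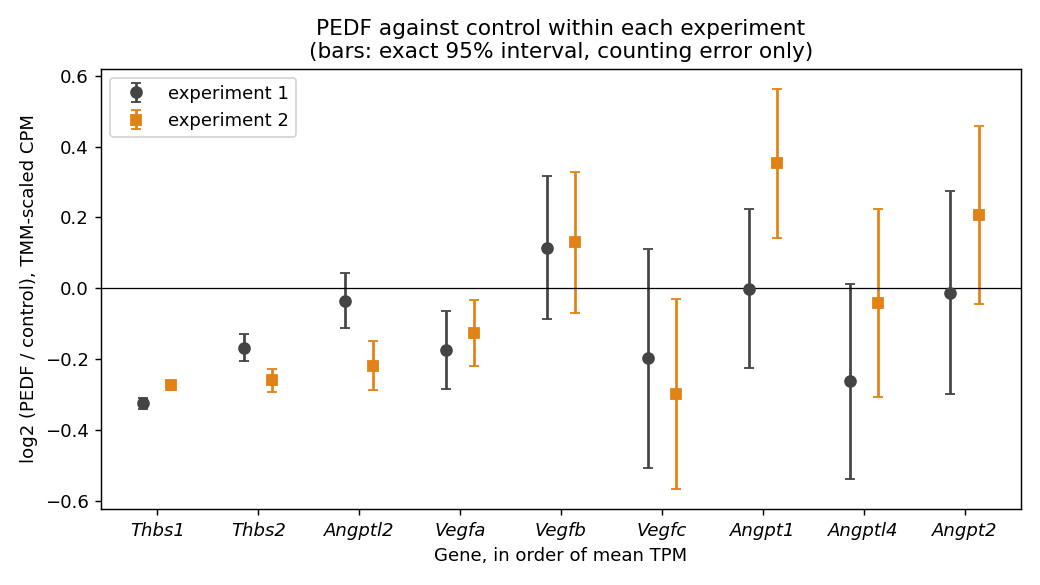
Log2 ratio of PEDF to control for each gene in experiment 1 (circles) and experiment 2 (squares), with exact 95% intervals that cover counting error only. Thbs1 is at -0.32 and -0.27, and Angpt1 is near 0 in experiment 1 and at 0.35 in experiment 2.

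The MEF preparations also differed in Thbs1 and Thbs2, with log2 differences of 0.36 and 0.23 beside the -0.30 and -0.21 of PEDF. In edgeR with a term for the treatment, 3 of the 9 genes were higher in experiment 2 than in experiment 1 (2.30% of all genes were): Thbs1 by 0.36 on the log2 scale (SE 0.04, adjusted p = 3.58e-19), Thbs2 by 0.23 (SE 0.04, adjusted p = 1.37e-05) and Vegfa by 0.22 (SE 0.06, adjusted p = 0.00597). This compares 1 preparation with 1 other. With a library left out, in fits with no treatment term, the difference of Thbs1 ranged from 0.21 (without PEDF replicate 1) to 0.53 (without control replicate 1), that of Thbs2 from 0.09 (without control replicate 2) to 0.35 (without PEDF replicate 2) and that of Vegfa from 0.14 (without PEDF replicate 1) to 0.31 (without control replicate 1). On all 4 libraries without the treatment term the count of called members was 0, with log2 differences of 0.36, 0.23 and 0.22, and it was 0 in limma as well.

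Genes with the levels most like those of Thbs1 over the 4 libraries, by the distance between centred log2 CPM among 10690 genes, were F2rl1, Ahnak2 and Shfl (distances 0.03, 0.03 and 0.04). F2rl1 had 11.3 and 14.3 CPM in control and 9.004 and 11.6 CPM in PEDF libraries.

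Related genes were read from 7 lists of 89 genes in all, 84 of them tested. Without the block, edgeR, DESeq2 (which gave 30 of the 84 an adjusted p) and limma called 0 of them (2 passed in edgeR when low counts were kept), and 11 had an unadjusted p under 0.05 in edgeR, against the same 6.88% of all genes. With the block, 12 passed in edgeR, against 3.75% of all genes, and in limma with the block 0 did. Among 12 tested receptors and partners of thrombospondins and angiopoietin-like proteins, 4 fell with the block and 0 rose, and the median log2 fold change was -0.09. Lrp1, an endocytic receptor that clears thrombospondins, had 257 and 330 TPM in control and 192 and 249 TPM in PEDF libraries, and fell by 0.39 on the log2 scale (SE 0.04, edgeR, adjusted p = 1.09e-18). The integrin subunits Itgb3 (-0.35), Itgav (-0.25) and Itga5 (-0.23) were the other 3. DESeq2 with the block gave Itgb3 no adjusted p and called Lrp1, Itgav and Itga5. After the length and GC correction all 4 passed in edgeR, and Itgb1 passed too (-0.12). The correction reduced the value of Lrp1 to -0.24 (-0.27 with length alone). Calr and Itgb1 were the most abundant of the list, at 2006 and 1171 TPM. Cd47 (-0.09) and Cd36 (0.27), the best known thrombospondin receptors, did not pass.

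Of 6 tested receptors of VEGFs and angiopoietins, Flt4, the receptor of VEGF-C, fell with the block (-0.72, edgeR, adjusted p = 0.0401) at only 1.07 to 2.15 TPM, and it had a log2 fold change of -0.65 with an adjusted p of 0.131 after the length and GC correction (-0.67 and 0.114 with length alone). DESeq2 with the block gave Flt4 no adjusted p. Nrp2 and Nrp1, co-receptors of VEGFs, were the most abundant at 78.3 and 48.5 TPM and did not pass. None of 9 tested family relatives passed with the block, and Thbs3 (67.8 TPM) and Thbs4 (30.9 TPM) had log2 fold changes of -0.10 and -0.09.

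Among 16 other pro-angiogenic factors, the heparin-binding growth factors Mdk (midkine) and Ptn (pleiotrophin) rose with the block, by 0.29 and 0.22 on the log2 scale (edgeR, adjusted p = 7.26e-06 and 2.35e-05). Ccn2 fell (-0.17, edgeR, adjusted p = 0.00344), with log2 ratios of -0.33 in experiment 1 and -0.02 in experiment 2. DESeq2 with the block did not call Ccn2 (adjusted p = 0.747). Ccn1, at 818 TPM the most abundant of the list, did not pass. Cxcl12 did not pass with the block (0.10, edgeR, adjusted p = 0.303) but did with length and GC also corrected (0.15, adjusted p = 0.0222). Mdk had 304 and 265 TPM in control and 351 and 329 TPM in PEDF libraries, with no overlap. Of 15 tested anti-angiogenic factors, the proteoglycan gene Dcn (decorin) rose (0.35, edgeR, adjusted p = 1.15e-06), while Adamts1 (-0.18) and Col18a1 (-0.16), which encodes the precursor of endostatin, fell. Col18a1 no longer passed after the length correction (-0.12, adjusted p = 0.156) or the length and GC correction (-0.09, adjusted p = 0.341). DESeq2 with the block called none of the 9 anti-angiogenic factors to which it gave an adjusted p, among them Dcn (adjusted p = 0.0589), Adamts1 (0.319) and Col18a1 (0.394). Sparc (3180 TPM) and Serpinf1, the gene of PEDF (544 TPM), did not pass, with log2 fold changes of 0.06 and 0.02.

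Of 16 hypoxia-response genes, many of which are regulated with Vegfa, Ldha rose with the block (0.17, edgeR, adjusted p = 0.00581) and had a log2 fold change of 0.13 with an adjusted p of 0.0560 with the length correction alone, but passed with length and GC corrected (0.14, adjusted p = 0.0247). Pgk1 (0.12) did not pass. None of 10 PPAR target genes, the class to which Angptl4 belongs, passed with the block, and Acadl and Acaa2 had log2 fold changes of 0.09 and -0.0014 at 80.1 and 67.6 TPM.

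**Figure D4:**
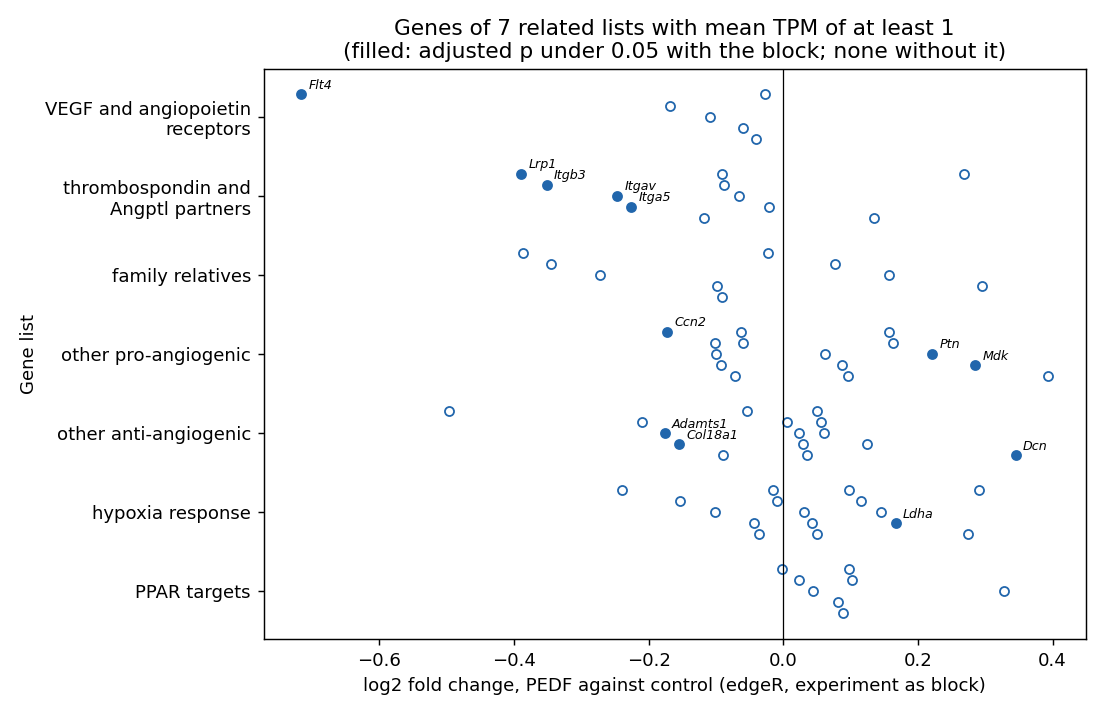
Log2 fold change with the experiment as block for the 80 genes of the 7 lists with a mean of at least 1 TPM, 1 point per gene, filled where the adjusted p was under 0.05. Lrp1, at -0.39 before correction for length and GC content (-0.24 after it), and 3 integrin subunits are the filled points of the thrombospondin partners, and the edgeR fit without the block called no gene of the lists.

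Some markers of other cell types passed in the fit with the block, in which 3.75% of all genes did, and without the block none of the marker genes passed in edgeR. None of the 8 tested endothelial markers passed with the block. Of the 6 mural cell markers, Cspg4 (-0.40) and Pdgfrb (-0.22) fell with the block, and the summed level was 333 and 422 TPM in control and 290 and 348 TPM in PEDF libraries. Of the 6 skeletal muscle markers, Actc1 (0.28) and Des (0.19) rose, Des with a value of 0.16 and an adjusted p of 0.0996 when length alone was corrected but 0.18 and 0.0357 with length and GC corrected. The skeletal muscle sum was 457 and 569 TPM in control and 517 and 650 TPM in PEDF libraries. The 6 macrophage markers summed to 223 and 135 TPM in control and 226 and 189 TPM in PEDF libraries. Of these sums, Lyz2 gave 129 and 57.8 TPM in control and 130 and 101 TPM in PEDF libraries. Lyz2 rose with the block (0.39), with log2 ratios of 0.05 in experiment 1 and 0.81 in experiment 2. None of the other macrophage markers passed. With PEDF, C1qa (0.29) and Cd68 (0.15) were higher, and Csf1r (-0.14), Ptprc (-0.08) and Adgre1 (-0.02) were lower. The call of Lyz2 was lost with the length correction (0.33, adjusted p = 0.864) and with length and GC corrected (0.33, adjusted p = 0.438), where its log2 fold change stayed positive. Of the 8 fibroblast markers, Col1a1 (-0.24) and Col1a2 (-0.12) fell and Lum (0.34) rose with the block, and Col1a2 was lost with length and GC corrected (-0.02, adjusted p = 0.923). The 6 epithelial markers, led by Krt18 and Krt8, summed to 72.5 to 90.8 TPM and none passed. The part of these cells in the differences of Thbs1 and Thbs2 was not tested.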

How the data were processed

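Per the labels, directional libraries were prepared from the polyadenylated RNA of MEFs. Per the paper's methods and the submitters' processing notes, the authors trimmed reads with Trimmomatic 0.38, aligned them with HISAT2 2.1.0 (mm10) and counted uniquely mapped reads with featureCounts 1.6.3. Which annotation and strand setting were used is not given in the sources used here. The deposited counts are not normalized. The authors also deposited TPM, whose conversion is not described. The labels give passage 2 and the paper's Results passage 3.

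Genes summing to 10 or more counts (19384) were tested with edgeR 4.0.16 under R 4.3.3 (TMM, robust quasi-likelihood test, no covariate), with p-values adjusted by Benjamini-Hochberg. The series' design text gives each experiment its own embryos, so experiment numbers pair the libraries. The difference between experiments correlated between control and PEDF MEFs (r = 0.425 over 10691 genes, which are not independent replicates), and a fit with the experiment as block was made as an alternative. Other alternatives were DESeq2 1.42.0, limma 3.58.1 on log2(TPM + 1) or log2(TPM + 0.1), RLE factors, other filters, each library left out, and length and GC corrections (natural splines of 5 degrees of freedom). The files hold no gene length, although one had been assumed, so exon lengths came from GENCODE M21. Intervals within an experiment are exact binomial (Clopper-Pearson) and cover counting error only, as do limits of 3 counts for a count of 0. Coding sequences were aligned with Biopython 1.88.

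DESeq2 was first run on the 26183 genes with at least 1 count and then, as its default, on all rows. It called 5 genes in the first and 9 in the second without a block, and the members called did not differ (0 without and 2 with the block in both), although its filter on mean counts left 3 members without an adjusted p in the first and 5 in the second (6 and 5 with the block). The change was made after the first result was known. Simulated data in 2 settings were used to test the fits. In the first setting, 200 genes changed 2-fold and preparations differed with an SD of 0.25 (log2): edgeR without the block recovered 0 of 200, limma 0, DESeq2 97 and edgeR with the block 146 (11 unchanged genes called). The spread was then lowered to 0.12, close to that measured between these preparations, with 100 genes each changed 2-fold and 4-fold: edgeR without the block recovered 69 and 85 (4 unchanged genes called), and with the block 72 and 88 (7 unchanged genes called). A length trend added to the PEDF libraries raised the unchanged genes called with the block to 20, which the length correction lowered to 6. The second setting was tuned to these data after the first had failed and is no independent evidence of power. Both settings used changes larger than those of Thbs1 and Thbs2, so they do not show how the fits treat differences of that size.

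Named genes were the 9 members, the 3 genes most like Thbs1 and genes that overlap a member. From the 7 related lists, genes called with or without the block (at most 10 a list) and the 2 most abundant of each list were named. Marker genes were named for a call with the block or a high level in their list. Cd47, Cd36, Cxcl12, Cldn5 and the macrophage markers not called were chosen after their values were seen, as was the corrected call of Itgb1. The members and lists were chosen with earlier results of these data known.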

Additional observations from a re-analysis of the deposited data

Results flagged for a closer look

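The PEDF ratios of Angpt1 and Angpt2 had opposite signs in experiments 1 and 2. The log2 ratio of PEDF to control was -0.000594 and 0.353 for Angpt1, and -0.0119 and 0.207 for Angpt2. The difference between the experiments was not tested, since each has 1 library per condition, and the values of experiment 1 are close to 0. The counting intervals include 0 for both genes in experiment 1 and for Angpt2 also in experiment 2 (-0.04 to 0.46).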

How the results depend on the processing

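Without a block, the number of the 9 genes called was 0 with RLE factors, DESeq2, limma, no filter and filterByExpr, and with no filter 1 of the thrombospondin partners and 1 of the anti-angiogenic factors passed. With the replicate block, 2 members were called in edgeR (also with RLE factors, with the length correction, and with length and GC corrected) and 2 in DESeq2 on either set of rows, but 0 in limma with the block. On all rows, DESeq2 gave an adjusted p to 4 of the 9 members and 30 of the 84 listed genes with or without the block, so its counts are over these. The block gave 1 VEGF receptor (also with RLE factors), 4 thrombospondin partners (4 with RLE factors or length, 5 with length and GC, 3 in DESeq2), 3 pro-angiogenic factors (3 with RLE factors or length, 4 with length and GC, 2 in DESeq2), 3 anti-angiogenic factors (3 with RLE factors, 2 with length or with length and GC, 0 in DESeq2) and 1 hypoxia gene (1 with RLE factors, with length and GC, and in DESeq2 on genes with at least 1 count, 0 with length and in DESeq2 on all rows). The VEGF receptor was not called with length or with length and GC and had no adjusted p in DESeq2, and limma with the block called 0 in every list. The block changed no other call of a member. With each library left out in turn and no block, 0 to 1 members, 0 to 2 partners, 0 to 1 pro-angiogenic and 0 to 1 anti-angiogenic factors passed, the highest each time without control replicate 1. The log2 fold change then ranged from -0.50 to -0.11 for Thbs1 and from -0.35 to -0.08 for Thbs2, -0.28 to -0.03 for Vegfa, 0.01 to 0.23 for Vegfb, -0.36 to -0.13 for Vegfc, 0.07 to 0.29 for Angpt1, -0.23 to -0.03 for Angptl2 and -0.28 to -0.02 for Angptl4, and that of Angpt2 from -0.0227 (without PEDF replicate 2) to 0.2175. Each of these fits lacks 1 library of a pair, so the ranges also hold the difference between preparations. With the block, leaving out a library leaves no residual degrees of freedom and was not run.

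Between the experiments, 3 members were called, 2 in DESeq2 (which gave 5 members no adjusted p), 0 in edgeR without the treatment term and 0 in limma. Without the treatment term and with a library left out, 0 (without control replicate 2 or PEDF replicate 1) to 2 (without PEDF replicate 2) passed, and 1 without control replicate 1. The log2 difference of Angpt1 turned to 0.0106 in limma and to 0.1321 without control replicate 2, where that of Angptl2 was -0.0017. The cause of these changes was not tested. Vegfb, Vegfc, Angpt1, Angpt2 and Angptl4 had 826 to 1659 counts in total, against 335603 for Thbs1. Their SEs with the block were 0.10 to 0.14 against 0.04 for Thbs1, and without the block 0.12 to 0.15 against 0.15. The part of depth in these SEs was not tested.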
